A study of Saccharomyces cerevisiae with 6 samples.

Results

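The 281 introns described here are the annotated introns of *Saccharomyces cerevisiae*, out of 293 introns that appeared in the junction tables of 6 mRNA libraries. An intron was taken when both of its splice sites were the annotated ones, and each was counted once. They were grouped by whether the 6 bases of the 5′ splice site (5′SS) were the most frequent ones, GTATGT (219 introns), whether the 7 bases assigned as the branch sequence were the most frequent ones, TACTAAC (234 introns), and whether the intron was shorter than 200 nt. A sequence equal to the most frequent one is called consensus below and any other a variant. Because introns of ribosomal protein genes (RPGs) are long and strongly expressed, the groups were compared within 104 RPG introns and within 177 non-RPG introns. Of the non-RPG introns, 38 had a variant 5′SS and 139 the consensus, 40 had a variant branch sequence and 137 the consensus, and 148 were under 200 nt and 29 at or above it. Of the RPG introns, 24 had a variant 5′SS and 80 the consensus, and 7 had a variant branch sequence and 97 the consensus. *RPL2A* had the 1 RPG intron under 200 nt, so length was compared in non-RPG introns only.

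The cells were *prp18Δ::kanMX6 upf1Δ::HIS3MX6* (*prp18Δupf1Δ*, 3 libraries) and *upf1Δ::HIS3MX6* (*upf1Δ*, 3 libraries), both made in BY4741 and grown to mid-log phase in rich medium. Prp18p is a spliceosomal protein of the second catalytic step. Both strains lack Upf1p, the helicase of nonsense-mediated mRNA decay, so unspliced and misspliced RNAs that this pathway would remove can be counted in both. Neither *PRP18* nor *UPF1* has an intron, so the tables could not show the deletions, and whether the replicates came from separate cultures is not stated, so the tests measure the spread between these libraries. Reads of annotated junctions numbered 791819 to 1250953 in the *prp18Δupf1Δ* libraries and 1347936 to 1502384 in the *upf1Δ* libraries. In both strains replicate 1 differed more from replicates 2 and 3 than these did from each other. The spliced and unspliced counts of *prp18Δupf1Δ* replicate 1 differed from those of replicates 2 and 3 with a chi-square of 109.9 and 110.2 per degree of freedom, against 5.68 between replicates 2 and 3, and the values in *upf1Δ* were 109.0 and 119.6 against 14.0. Replicate 1 had the highest SE of its strain in the median of each group by 5′SS, branch and length, and values without it are given beside the main gaps. What sets these 2 libraries apart was not tested.

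In splicing, U1 snRNP and later U6 snRNA pair with the 5′SS, and U2 snRNA pairs with the branch sequence and leaves its last A bulged, so that this A attacks the 5′SS in the first step. Most yeast introns keep both sequences, and a variant base can alter one of these pairings. Most non-RPG introns of yeast are short, whereas RPG introns are mostly several times longer and are known for efficient splicing.

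The sequences that follow show what the groups look like. They were read 5′ to 3′ from the R64 genome, with the 5′SS, the assigned branch sequence and the 3′SS in capitals, and a variant is written as consensus base, position and intron base, with positions counted from 1 at the first base of the 5′SS or of the branch sequence. The *RIM1* intron stands for the consensus, and the others are the short introns on which the results turn.
*RIM1*, consensus 5′SS and branch (chrIII:173116-173198, minus strand): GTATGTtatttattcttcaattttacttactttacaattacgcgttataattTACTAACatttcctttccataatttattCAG
*YIP3*, T4A in the 5′SS (chrXIV:545292-545370, plus strand): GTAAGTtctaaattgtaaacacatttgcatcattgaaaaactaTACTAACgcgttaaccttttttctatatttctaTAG
*QCR10*, T4A in the 5′SS (chrVIII:107832-107894, plus strand): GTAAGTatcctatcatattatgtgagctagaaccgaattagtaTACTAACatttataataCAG
*REC107*, A3T and T4C in the 5′SS (chrX:469184-469263, minus strand): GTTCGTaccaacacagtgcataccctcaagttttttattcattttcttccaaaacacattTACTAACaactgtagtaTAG
*ERV1*, C3T in the branch (chrVII:543639-543721, plus strand): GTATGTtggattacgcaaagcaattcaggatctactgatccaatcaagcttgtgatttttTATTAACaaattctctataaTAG
*SRB2*, A2G in the branch (chrVIII:189750-189850, minus strand): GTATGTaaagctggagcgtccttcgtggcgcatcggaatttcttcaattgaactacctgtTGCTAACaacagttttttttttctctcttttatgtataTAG
*YCL002C*, T6C in the 5′SS and T1G in the branch (chrIII:111558-111633, minus strand): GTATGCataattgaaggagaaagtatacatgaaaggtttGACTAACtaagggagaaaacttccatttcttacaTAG
*CMC4*, A3T in the 5′SS and T1C in the branch (chrXIII:652776-652847, minus strand): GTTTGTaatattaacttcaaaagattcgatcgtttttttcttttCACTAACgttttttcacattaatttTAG
*RRT8*, T4A in the 5′SS and T1G in the branch (chrXV:240948-241025, minus strand): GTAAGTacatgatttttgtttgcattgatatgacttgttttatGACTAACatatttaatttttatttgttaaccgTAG
*SUS1* intron 1, T6A in the 5′SS and A5G in the branch (chrII:462210-462289, plus strand): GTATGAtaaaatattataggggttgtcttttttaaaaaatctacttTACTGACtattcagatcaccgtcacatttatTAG
*SUS1* intron 2, consensus 5′SS and branch (chrII:462430-462499, plus strand): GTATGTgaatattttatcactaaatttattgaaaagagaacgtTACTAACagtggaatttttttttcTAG

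For the longer RPG introns that are compared below as paralogues or as introns of the same gene, the first 20 bases and the stretch that starts with the assigned branch sequence and ends with the 3′SS are shown.
*RPS9A*, 5′ end (chrXVI:404957-404976, plus strand): GTACGTcgttaatcttctcc
*RPS9A*, branch to 3′SS (chrXVI:405424-405457, plus strand): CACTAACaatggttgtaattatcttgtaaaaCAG
*RPS9B*, 5′ end (chrII:604515-604534, plus strand): GTACGTattagactatatcg
*RPS9B*, branch to 3′SS (chrII:604891-604927, plus strand): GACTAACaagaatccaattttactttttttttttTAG
*RPL7A* intron 1, 5′ end (chrVII:365966-365985, minus strand): GTATGTatacgaaatcgtct
*RPL7A* intron 1, branch to 3′SS (chrVII:365527-365593, minus strand): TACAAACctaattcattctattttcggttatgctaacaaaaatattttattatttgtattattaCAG
*RPL7A* intron 2, 5′ end (chrVII:365413-365432, minus strand): GTATGTtaaacttttgctta
*RPL7A* intron 2, branch to 3′SS (chrVII:364965-365008, minus strand): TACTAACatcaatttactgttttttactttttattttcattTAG
*RPL7B* intron 1, 5′ end (chrXVI:173163-173182, plus strand): GTATGTcaaaaactacaaat
*RPL7B* intron 1, branch to 3′SS (chrXVI:173544-173571, plus strand): TGCTAACatttttttcatttttgaaTAG
*RPL7B* intron 2, 5′ end (chrXVI:173666-173685, plus strand): GTATGTtcatttaccatgtt
*RPL7B* intron 2, branch to 3′SS (chrXVI:174032-174072, plus strand): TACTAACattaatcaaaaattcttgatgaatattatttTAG

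Splicing efficiency (SE) is the reads of the annotated junction as a percentage of these reads plus the unspliced reads of the intron. Reads across alternative junctions are not part of it, so a low SE can go with splicing at other sites. The change of an intron is its ratio of spliced over unspliced reads in *prp18Δupf1Δ*, divided by the same ratio in *upf1Δ*, on the log2 scale. It was tested by edgeR's quasi-likelihood test over the 272 introns with counts in every library, with Benjamini-Hochberg adjusted p values and a threshold of 0.05. Of these, 222 (81.6%) were lower in *prp18Δupf1Δ* and 0 were higher, also 0 at an unadjusted p under 0.05 and 0 by DESeq2 and by limma. The background was 85.7% among the 168 non-RPG introns tested and 75.0% among the 104 RPG introns tested, and counts in the groups are to be read against it. SE of the 3 *prp18Δupf1Δ* libraries lay below that of all 3 *upf1Δ* libraries in 82.7% of the introns tested (86.9% of non-RPG and 76.0% of RPG introns) and above it in 0.368% (0.0% of non-RPG and 0.962% of RPG introns). The 9 introns that were not tested were those of *PCH2*, *SAE3*, *MND1*, *AMA1*, *GMC2*, *OSW2*, *SPO1*, *YKR005C* and *LDS2*. They were short non-RPG introns with no junction listed in at least 1 library, so their unspliced reads there were unknown. Most had few reads elsewhere, but *YKR005C* had 25 to 84 spliced plus unspliced reads in each library that listed it. Most of these genes serve meiosis or sporulation, and 8 of the 9 introns had a variant 5′SS or branch sequence.

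Non-RPG introns with a variant 5′SS were spliced less than those with the consensus in both strains. By group medians the gap was wider in *prp18Δupf1Δ*, but not by group means. Their median SE was 61.5%, 55.0% and 53.3% in *prp18Δupf1Δ* replicates 1 to 3, against 87.8%, 82.0% and 79.9% in *upf1Δ* (34 introns). Consensus introns had medians of 81.8%, 73.0% and 72.8% in *prp18Δupf1Δ*, against 94.9%, 92.9% and 92.8% in *upf1Δ* (134 introns). In each strain the 3 libraries of the variant group lay below the 3 of the consensus group, and the strains did not overlap within either group. The gap, variant minus consensus, was −19.3 ± 1.14 percentage points in *prp18Δupf1Δ* and −10.3 ± 2.96 points in *upf1Δ* (SD, n = 3 each). By an exact two-sided permutation test over the 6 libraries the gaps differed with p = 0.1, the smallest p that 20 assignments can give. Without replicate 1 of both strains, the gaps were −18.8 points in *prp18Δupf1Δ* and −11.9 points in *upf1Δ*. With means in place of medians, the gap was the narrower in *prp18Δupf1Δ*, at −13.4 points against −15.3 points in *upf1Δ*. With GTATG alone as the consensus the gap was −3.63 points in *prp18Δupf1Δ* and −3.68 points in *upf1Δ*, so the widening between strains depended on the median and on this grouping.

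**Figure D1:**
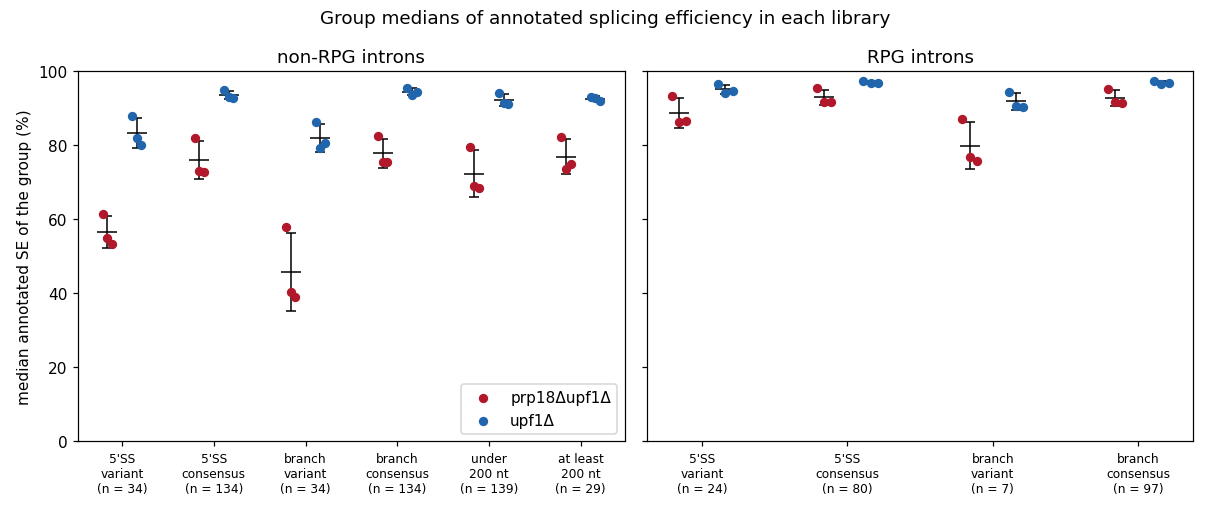
Median annotated SE (%) over the introns of each group, 1 point per library, with the mean and SD of 3 libraries as bars and the number of tested introns under each group, for non-RPG introns (left) and RPG introns (right). The lowest medians are those of non-RPG introns with a variant branch in *prp18Δupf1Δ*, 57.8%, 40.4% and 38.9%.

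The wider gap between medians in percentage points was not matched by a larger change of the ratio. The variant introns changed by a median log2 of −1.93 (28 of 34 lower, quartiles −2.30 and −1.31), and the consensus introns by −2.29 (116 of 134 lower, quartiles −2.90 and −1.73). The gap in the median log2 ratio of spliced to unspliced reads was −1.28 ± 0.18 in *prp18Δupf1Δ* and −1.49 ± 0.20 in *upf1Δ* (SD, n = 3 each, exact two-sided permutation p = 0.3). By arithmetic, an equal fall of the ratio takes more percentage points from an intron of middling SE than from one near complete splicing, so the scale decides which group appears to lose more. The variant introns had somewhat fewer reads, a median of 2806 against 3110 over the 6 libraries, and their median length was 87 nt against 98 nt.

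The 5′SS variants were not alike. Non-RPG introns with a single departure in the 5′SS were taken whatever their branch sequence. Those at position 4 reached a median SE of 74.8 ± 3.63% in *prp18Δupf1Δ* and 90.1 ± 1.83% in *upf1Δ* (19 introns), close to the consensus. Those at position 6 had 52.0 ± 4.20% in *prp18Δupf1Δ* and 76.6 ± 5.59% in *upf1Δ* (9 introns). The branch was a variant too in *MTR2*, *RRT8*, *ATG38* and *YFR045W* at position 4, and in *YCL002C* and *SUS1* intron 1 at position 6. The change was similar at both, with a median log2 of −1.63 (16 of 19 lower) at position 4 and −1.95 (8 of 9 lower) at position 6. At position 4 the level differed with the base. GTAAGT (T4A), found in 14 non-RPG introns and in no RPG intron, had a median SE of 79.4 ± 4.81% in *prp18Δupf1Δ* and 91.0 ± 2.37% in *upf1Δ*, with 9 of 12 tested introns lower. GTACGT (T4C) in 7 tested non-RPG introns had 49.8 ± 7.06% in *prp18Δupf1Δ* and 73.8 ± 4.24% in *upf1Δ*, with 7 of 7 lower. These groups also differed in the use of alternative 3′SS. More than 10 such reads per 100 annotated reads were seen in *prp18Δupf1Δ* for 4 of 7 GTACGT and 1 of 12 GTAAGT introns. In *upf1Δ* the counts were 3 and 1, and the part of these sites in the levels was not tested. The same GTACGT in 15 RPG introns had 89.1 ± 3.07% in *prp18Δupf1Δ* and 94.8 ± 0.62% in *upf1Δ*, with 14 of 15 lower and a median log2 change of −1.61, next to −1.63 in the non-RPG introns.

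Single introns spanned nearly the whole range. *YPL109C*, whose 5′SS GTTCGT departs by A3T and T4C, fell the most among well covered non-RPG introns with a variant 5′SS. It had an SE of 40.9%, 49.4% and 50.8% in *prp18Δupf1Δ*, against 97.7%, 92.7% and 94.5% in *upf1Δ* (log2 change −4.54 ± 0.51 SE of the fit, edgeR adjusted p = 0.000197). The strains did not overlap. *REC107*, a meiotic recombination gene with the same GTTCGT, had little annotated splicing in these vegetative cells, at 0.72%, 0.90% and 0.65% in *prp18Δupf1Δ* and 3.58%, 2.99% and 3.02% in *upf1Δ*, and it fell too (log2 −2.09 ± 0.32, adjusted p = 0.000651). Its annotated junction had 6, 6 and 4 reads in *prp18Δupf1Δ* and 17, 18 and 20 in *upf1Δ*. Per 100 annotated reads, reads of alternative 5′SS numbered 175 in *prp18Δupf1Δ* and 158 in *upf1Δ*. The GTAAGT intron with the most reads, in *YIP3*, a gene of transport between the endoplasmic reticulum and the Golgi, had 96.1%, 88.6% and 86.7% in *prp18Δupf1Δ* and 99.6%, 97.7% and 98.0% in *upf1Δ* (log2 −2.73 ± 0.72, adjusted p = 0.00774). *QCR10*, which encodes a subunit of respiratory complex III, has the same GTAAGT and the consensus branch, and its intron had the highest log2 change of all short, well covered non-RPG introns. Its SE was 89.5%, 89.8% and 91.2% in *prp18Δupf1Δ* and 90.6%, 89.1% and 89.3% in *upf1Δ* (log2 0.09 ± 0.24, adjusted p = 0.737), and the strains overlapped. Its assigned branch sequence ends closer to the 3′SS than that of *YIP3*, with a listed distance of 14 nt against 30 nt.

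**Figure D2:**
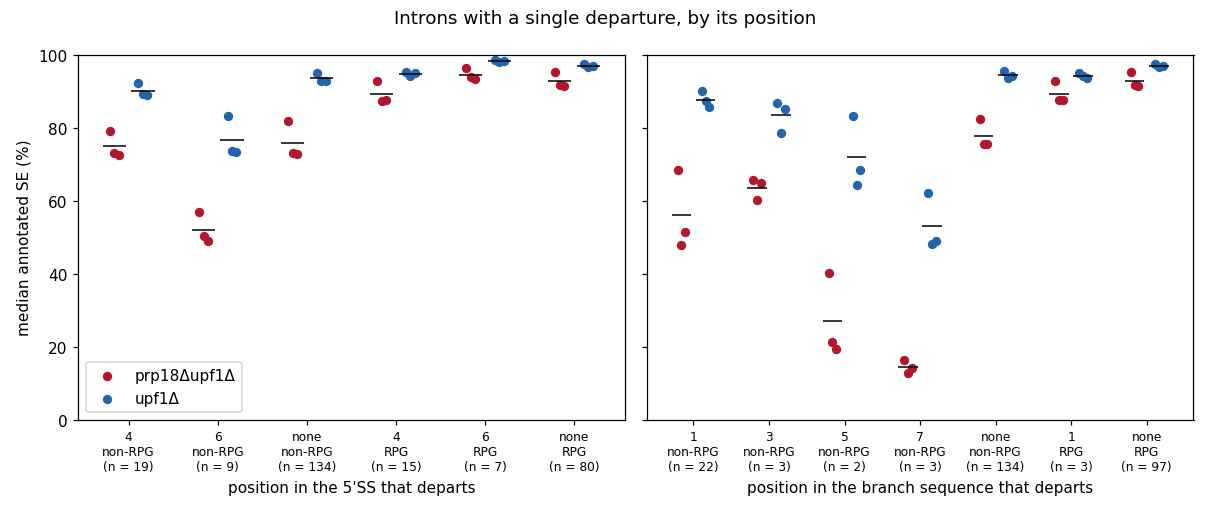
Median annotated SE (%) of introns with a single variant base in the 5′SS (left) or in the branch sequence (right), by its position. The other element may be consensus or variant. Positions with at least 2 tested introns are shown, with 1 point per library and a bar for the mean, and "none" marks the consensus group. Departures at position 6 of the 5′SS and at positions 5 and 7 of the branch lie lowest among non-RPG introns, and position 7 includes *HAC1*, which the spliceosome does not cut.

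In RPG introns the 5′SS made a smaller difference. The variant group had medians of 93.2%, 86.1% and 86.5% in *prp18Δupf1Δ* and 96.5%, 94.1% and 94.7% in *upf1Δ* (24 introns), and the consensus group 95.2%, 91.7% and 91.5% in *prp18Δupf1Δ* and 97.4%, 96.6% and 96.8% in *upf1Δ* (80 introns). The gap was −4.21 ± 1.93 points in *prp18Δupf1Δ* and −1.87 ± 0.863 points in *upf1Δ* (exact two-sided permutation p = 0.3, without regard to replicate numbers). In points it was wider in *prp18Δupf1Δ* in each pair of libraries with the same number. It was −2.0, −5.57 and −5.05 points in *prp18Δupf1Δ* replicates 1 to 3 and −0.91, −2.57 and −2.14 points in *upf1Δ*. On the log2 ratio the gaps were alike, −0.70 ± 0.15 in *prp18Δupf1Δ* and −0.68 ± 0.24 in *upf1Δ* (exact two-sided permutation p = 0.9). The variant introns changed by a median log2 of −1.52 with 21 of 24 lower, and the consensus introns by −1.65 with 57 of 80 lower. Beside the background of 75.0%, the share called lower among variants rested on single libraries. Without *prp18Δupf1Δ* replicate 2, 14 of 24 variant and 45 of 80 consensus introns were lower, without *prp18Δupf1Δ* replicate 3 also 14 and 45, and without *upf1Δ* replicate 1 they were 14 and 47. The difference between the median changes, 0.13, was −0.078 for means. The quartiles were −1.85 and −1.32 for the variants and −2.17 and −0.73 for the consensus introns, so the consensus group held more introns with little change as well as more with a large one.

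*RPS6A*, with GTATGA, fell the most among RPG introns with a variant 5′SS. It had 97.9%, 93.8% and 93.4% in *prp18Δupf1Δ* and 99.7%, 99.5% and 99.2% in *upf1Δ* (log2 −3.14 ± 0.56, edgeR adjusted p = 0.00129). *RPL30*, whose product binds its own pre-mRNA and represses its splicing, has GTCAGT (A3C and T4A) and had the least change, with 93.0%, 85.0% and 85.4% in *prp18Δupf1Δ* and 92.7%, 88.9% and 90.2% in *upf1Δ* (log2 −0.38 ± 0.41, adjusted p = 0.414). The strains overlapped, and the intron passed the threshold when *prp18Δupf1Δ* replicate 1 was left out (log2 −0.77, adjusted p = 0.00859). It also passed as lower with replicate 1 of both strains left out. *RPL22B*, with GTACGT, had the lowest SE of the RPG introns in *upf1Δ*. It had 12.6%, 7.32% and 6.85% in *prp18Δupf1Δ* and 40.7%, 25.5% and 29.1% in *upf1Δ* (log2 −2.28 ± 0.40, adjusted p = 0.00126), and its product is likewise known to repress splicing of its own transcript. The introns with most reads for GTATGA and GTATGC, those of *RPS11A* (97.3 ± 1.04% in *prp18Δupf1Δ* and 98.8 ± 0.081% in *upf1Δ*, adjusted p = 0.0218) and *RPL40A* (98.2 ± 0.976% in *prp18Δupf1Δ* and 99.4 ± 0.178% in *upf1Δ*, adjusted p = 0.0465), were lower by less than 2 points. Both calls were lost when any single library other than *prp18Δupf1Δ* replicate 1 was left out, and that of *RPL40A* by limma as well.

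The branch sequence separated the non-RPG introns further than the 5′SS did. Introns with a variant branch had a median SE of 57.8%, 40.4% and 38.9% in *prp18Δupf1Δ* and 86.1%, 79.1% and 80.5% in *upf1Δ* (34 introns). Those with TACTAAC had 82.3%, 75.5% and 75.5% in *prp18Δupf1Δ* and 95.4%, 93.6% and 94.2% in *upf1Δ* (134 introns). The gap was −32.1 ± 6.59 points in *prp18Δupf1Δ* and −12.5 ± 2.81 points in *upf1Δ*, and no gap of one strain overlapped with those of the other (exact two-sided permutation p = 0.1, the smallest possible). Without replicate 1 of both strains the gaps were −35.8 points in *prp18Δupf1Δ* and −14.1 points in *upf1Δ*. On the log2 ratio the gaps were −2.07 ± 0.27 in *prp18Δupf1Δ* and −1.87 ± 0.13 in *upf1Δ* (exact p = 0.3), and the gap was the wider in *prp18Δupf1Δ* in each of the 3 pairs of same-numbered libraries.

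Most variant-branch introns were at an SE under 50% in *prp18Δupf1Δ*, 18 of 34, against 8 of 34 in *upf1Δ*. Among TACTAAC introns the counts were 25 of 134 in *prp18Δupf1Δ* and 9 of 134 in *upf1Δ*. Variant introns changed by a median log2 of −2.35 (30 of 34 lower) and consensus introns by −2.03 (114 of 134 lower), beside 85.7% lower among all non-RPG introns. The variant introns were covered by fewer reads, a median of 2025 against 3617 over the 6 libraries, and across the 168 non-RPG introns SE was higher where reads were more numerous (Spearman's rho 0.41 in *prp18Δupf1Δ* and 0.35 in *upf1Δ*, across introns of the same libraries, as a description). The part of expression in the branch gap was not tested.

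Among the branch variants, departures at the first base were most common. Introns with a single departure in the branch were taken whatever their 5′SS. The 22 tested non-RPG introns with it at position 1 had a median SE of 55.9 ± 10.8% in *prp18Δupf1Δ* and 87.6 ± 2.22% in *upf1Δ*. Of these, 19 were lower, and the median log2 change was −2.32. GACTAAC (10 non-RPG introns) had 58.5 ± 8.51% in *prp18Δupf1Δ* and 88.4 ± 0.381% in *upf1Δ*. CACTAAC (6 tested) had 61.3 ± 13.5% in *prp18Δupf1Δ* and 90.0 ± 3.40% in *upf1Δ*. AACTAAC (6 tested) lay below both, with 18.8 ± 5.42% in *prp18Δupf1Δ* and 54.0 ± 2.05% in *upf1Δ*, although the change was much the same in the 3 sequences, with median log2 values of −2.34, −2.49 and −2.32. The AACTAAC introns, among them both of *TAD3* and that of *MTR2* with its variant 5′SS, were unlike each other. In *upf1Δ* replicate 1 they ranged from 8.97% to 93.4%, against 21.9% to 98.6% for GACTAAC and 56.0% to 98.7% for CACTAAC.

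The few introns with a departure at position 5 or 7, on either side of the branched A at position 6, had the lowest median SE of the positions with at least 2 tested non-RPG introns. The position 7 group of 3 tested introns holds *HAC1*, which the spliceosome does not cut, beside *HRB1* and *SCS22*, and the 2 without *HAC1*, both TACTAAT, had a median of 20.7 ± 0.923% in *prp18Δupf1Δ* and 58.3 ± 5.02% in *upf1Δ*. Those with TACTGAC (A5G), *BET4* and *SUS1* intron 1, had a median of 27.0 ± 11.6% in *prp18Δupf1Δ* and 71.9 ± 9.89% in *upf1Δ*. *SUS1* intron 1 has a variant 5′SS as well. *HRB1*, which encodes an mRNA export factor, has TACTAAT (C7T), and its intron had 16.4%, 12.8% and 14.1% in *prp18Δupf1Δ* and 62.2%, 48.1% and 49.0% in *upf1Δ* (log2 −2.76 ± 0.31, edgeR adjusted p = 0.000197). *ERV1*, a sulfhydryl oxidase gene of the mitochondrial intermembrane space, has TATTAAC (C3T) and had 65.6%, 60.3% and 64.7% in *prp18Δupf1Δ* and 90.7%, 89.0% and 90.3% in *upf1Δ* (log2 −2.37 ± 0.25, adjusted p = 0.000176). *SCS22*, also with TACTAAT, had 26.5%, 26.6% and 28.0% in *prp18Δupf1Δ* and 65.5%, 60.3% and 64.6% in *upf1Δ* (log2 −2.23 ± 0.27, adjusted p = 0.000244). In none of these 3 genes did the strains overlap.

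*SRB2*, which encodes a subunit of the Mediator complex, had the lowest log2 change of all introns tested. Its branch is TGCTAAC (A2G) with a consensus 5′SS, as printed above. SE was 1.31%, 4.15% and 8.25% in *prp18Δupf1Δ*, against 78.3%, 79.8% and 76.3% in *upf1Δ* (log2 −6.17 ± 0.52, edgeR adjusted p = 0.000117). At least 76.5 spliced plus unspliced reads covered it in each library, and the strains were far apart. Its annotated junction had only 1, 4 and 8 reads in the *prp18Δupf1Δ* libraries, against 85, 229 and 235 in *upf1Δ*, so the size of the fall rests on few reads. The other intron assigned TGCTAAC, the first of *RPL7B*, did not pass the threshold (adjusted p = 0.413). No other tested intron had a single departure at position 2.

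RPG introns with a variant branch were 7, among them those of both *RPS9* paralogues and the first introns of both *RPL7* paralogues. Their median SE was 87.1%, 76.7% and 75.6% in *prp18Δupf1Δ* and 94.3%, 90.6% and 90.3% in *upf1Δ*, and that of the 97 RPG introns with TACTAAC was 95.1%, 91.6% and 91.4% in *prp18Δupf1Δ* and 97.4%, 96.6% and 96.7% in *upf1Δ*. The gap was −12.9 ± 4.25 points in *prp18Δupf1Δ* and −5.16 ± 1.83 points in *upf1Δ* (exact two-sided permutation p = 0.1). On the log2 ratio it was −1.68 ± 0.13 in *prp18Δupf1Δ* and −1.46 ± 0.27 in *upf1Δ* (exact two-sided permutation p = 0.3). Of the 7, 5 were lower with a median log2 change of −1.78, against 73 of 97 with −1.57. The difference between these medians, −0.21, changed sign for means (0.16). It also did so when each intron's change was its median difference between same-numbered libraries (0.03). The edgeR fit with the replicate number as a block kept the sign, with medians of −1.77 and −1.58. The assigned branch is a sequence of the intron that matches TACTAAC best, where ties are possible. In *RPL19A* and *RPS25B* it lies 439 nt and 183 nt from the 3′SS, against a median of 38 nt in RPG introns with TACTAAC. Whether these are the branches in use was not tested.

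The *RPS9* paralogues share GTACGT and, of the features grouped here, differ in the first base of the branch. *RPS9A*, with CACTAAC, had 44.7%, 32.5% and 33.7% in *prp18Δupf1Δ* and 77.2%, 71.4% and 73.4% in *upf1Δ* (log2 −2.29 ± 0.30, edgeR adjusted p = 0.000306). *RPS9B*, with GACTAAC, had 92.7%, 87.6% and 87.5% in *prp18Δupf1Δ* and 94.9%, 94.0% and 93.7% in *upf1Δ* (log2 −0.93 ± 0.33, adjusted p = 0.0295). The *RPS9B* call was lost when any single library other than *prp18Δupf1Δ* replicate 1 was left out. The log2 ratio of *RPS9A* minus that of *RPS9B* was −3.88 ± 0.09 in *prp18Δupf1Δ* and −2.51 ± 0.13 in *upf1Δ* (SD, n = 3 each, exact two-sided permutation p = 0.1). *RPS21A*, the AACTAAC intron with the most reads, had 97.1%, 90.0% and 89.8% in *prp18Δupf1Δ* and 99.0%, 97.8% and 98.1% in *upf1Δ* (log2 −2.16 ± 0.59, adjusted p = 0.00977). Exons of paralogous RPGs are nearly identical, and how the counts treat reads that match both paralogues was not tested.

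When both elements were considered together, SE of short non-RPG introns was lowest with both variant and highest with neither. The 7 tested introns with variants in both had a median SE of 33.2 ± 5.98% in *prp18Δupf1Δ* and 56.5 ± 7.26% in *upf1Δ*. The 23 with a variant branch only had 56.2 ± 9.77% in *prp18Δupf1Δ* and 85.5 ± 4.20% in *upf1Δ*. The 24 with a variant 5′SS only had 68.9 ± 5.33% in *prp18Δupf1Δ* and 89.6 ± 1.56% in *upf1Δ*, and the 85 with both consensus had 79.0 ± 3.69% in *prp18Δupf1Δ* and 94.7 ± 0.816% in *upf1Δ*. The order of the 4 groups was the same in both strains. The change did not follow that order. The median log2 change was −2.30 (5 of 7 lower), −2.44 (22 of 23), −1.93 (23 of 24) and −2.26 (74 of 85) in the same sequence of groups.

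The introns with both elements variant differed widely among themselves. *YCL002C* (GTATGC and GACTAAC) had 1.84%, 4.27% and 5.31% in *prp18Δupf1Δ* and 39.4%, 42.2% and 42.1% in *upf1Δ* (log2 −4.04 ± 0.38, edgeR adjusted p = 0.000119). *RRT8*, with the same GACTAAC after GTAAGT, was spliced well, at 85.7%, 76.4% and 80.7% in *prp18Δupf1Δ* and 98.6%, 93.8% and 92.9% in *upf1Δ* (log2 −2.30 ± 0.59, adjusted p = 0.00683). *YFR045W* (GTAAGT and TATTAAC) had 21.8%, 20.7% and 19.9% in *prp18Δupf1Δ* and 64.4%, 50.2% and 54.8% in *upf1Δ* (log2 −2.31 ± 0.33, adjusted p = 0.000478). In these 3 introns the strains did not overlap.

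*MTR2*, which encodes a subunit of the mRNA export receptor, has GTACGT and AACTAAC, and its annotated junction was minor, at 1.79%, 2.02% and 1.80% in *prp18Δupf1Δ* and 9.0%, 8.0% and 9.0% in *upf1Δ* (log2 −2.31 ± 0.26, adjusted p = 0.000197). *CMC4* (GTTTGT and CACTAAC), a gene of a mitochondrial intermembrane space protein, had 40.1%, 38.8% and 34.5% in *prp18Δupf1Δ* and 56.0%, 47.3% and 38.5% in *upf1Δ*, which overlapped (log2 −0.56 ± 0.35, adjusted p = 0.163). With the replicate number as a block, *CMC4* passed the threshold (adjusted p = 0.0243). *ATG38*, an autophagy gene (GTAAGT and GACTAAC), had 63.4%, 42.0% and 44.8% in *prp18Δupf1Δ* and 85.5%, 63.8% and 62.4% in *upf1Δ*. Its log2 change of −1.33 ± 0.58 missed the threshold (adjusted p = 0.0604) and passed it by DESeq2, with the replicate block, without *prp18Δupf1Δ* replicate 1 and without *upf1Δ* replicate 3. It also passed with replicate 1 of both strains left out. The strains overlapped in *ATG38*, and replicate 1 was the highest of both strains in *ATG38* and *CMC4*.

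*HAC1* counts as a long non-RPG intron with both elements variant, with CCGTGA and TACTAAG, but it is cut by the kinase and nuclease Ire1p and joined by the tRNA ligase, not by the spliceosome, when proteins in the endoplasmic reticulum are unfolded. Its SE was 1.4%, 2.3% and 3.4% in *prp18Δupf1Δ* and 1.2%, 1.4% and 3.6% in *upf1Δ*, and the strains overlapped (log2 0.28 ± 0.53, edgeR adjusted p = 0.64). It was the highest log2 change of the variant groups of non-RPG introns.

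Length separated the non-RPG introns little. Introns under 200 nt had a median SE of 79.5%, 69.0% and 68.3% in *prp18Δupf1Δ* and 94.0%, 91.3% and 91.0% in *upf1Δ* (139 introns), and those of at least 200 nt had 82.2%, 73.4% and 74.7% in *prp18Δupf1Δ* and 92.9%, 92.8% and 91.8% in *upf1Δ* (29 introns). The gap, short minus long, was −4.56 ± 1.86 points in *prp18Δupf1Δ* and −0.405 ± 1.38 points in *upf1Δ* (exact two-sided permutation p = 0.1). The gap in *upf1Δ* was within the spread between libraries, and it was 0.136 points without *upf1Δ* replicate 2. For means the gap was −2.55 points in *prp18Δupf1Δ* and 4.27 points, of the opposite sign, in *upf1Δ*. On the log2 ratio the gap between medians was −0.34 ± 0.10 in *prp18Δupf1Δ* and −0.05 ± 0.32 in *upf1Δ* (exact two-sided permutation p = 0.2). Short introns changed by a median log2 of −2.25 with 124 of 139 lower, and long introns by −1.74 with 20 of 29 lower (69.0%, beside 85.7% of all non-RPG introns). With consensus 5′SS and branch on both sides, the short introns had 79.0 ± 3.69% in *prp18Δupf1Δ* and 94.7 ± 0.816% in *upf1Δ*, and the 23 long ones had 84.9 ± 2.74% in *prp18Δupf1Δ* and 96.3 ± 0.579% in *upf1Δ* (median log2 −1.81, 17 lower).

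The long introns did not change alike. The 13 from 300 nt to under 400 nt had a median log2 change of −2.83 (11 lower), whereas the 7 of 500 nt or more had −1.22 (3 lower). In *STO1*, the gene of the large subunit of the nuclear cap-binding complex, SE was 60.3%, 30.5% and 35.4% in *prp18Δupf1Δ* and 91.3%, 90.0% and 90.1% in *upf1Δ* (321 nt, log2 −3.75 ± 0.50, edgeR adjusted p = 0.000342), the largest fall of the long group. In *MPT5*, which encodes a Puf-family RNA-binding protein, the intron of 639 nt was poorly spliced in both strains, at 6.25%, 29.1% and 31.6% in *prp18Δupf1Δ* and 7.91%, 27.1% and 16.9% in *upf1Δ* (log2 0.54 ± 0.75, adjusted p = 0.526). Its strains overlapped, and as few as 48 reads covered it in a library. *DBP2*, an RNA helicase gene with an intron of 1001 nt, was at 97.5% in *prp18Δupf1Δ* and 97.4% in *upf1Δ* on average (log2 0.09, adjusted p = 0.769). It was chosen after its values were seen.

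At the limit itself stood *SEC27*, whose listed length of 199 nt is 1 less than its 200 bases, as in all of these introns. Its SE averaged 74.5 ± 2.61% in *prp18Δupf1Δ* and 93.5 ± 1.57% in *upf1Δ*. The nearest introns were *YDR381C-A* (193 nt, 2.79 ± 1.15% in *prp18Δupf1Δ* and 17.7 ± 2.99% in *upf1Δ*) on the short side, and *PFY1* (208 nt, 86.0 ± 1.83% in *prp18Δupf1Δ* and 96.0 ± 0.70% in *upf1Δ*) and *QCR9* (212 nt, 66.4 ± 7.03% in *prp18Δupf1Δ* and 84.2 ± 3.45% in *upf1Δ*) on the long side. The one short RPG intron, in *RPL2A* (146 nt), had 91.9%, 86.6% and 86.6% in *prp18Δupf1Δ* and 95.9%, 95.0% and 95.4% in *upf1Δ* (log2 −1.42 ± 0.32, edgeR adjusted p = 0.00382). The long RPG introns with the lowest and the highest log2 change were the second of *RPS22B* (63.7 ± 10.6% in *prp18Δupf1Δ* and 95.2 ± 1.72% in *upf1Δ*, log2 −3.53 ± 0.47, adjusted p = 0.000342) and that of *RPS26A*, which lies 5′ of the coding sequence. *RPS26A* had 79.6%, 69.2% and 71.0% in *prp18Δupf1Δ* and 70.1%, 59.8% and 62.6% in *upf1Δ* (log2 0.63 ± 0.31, adjusted p = 0.0902), and passed the threshold as higher with the replicate block (adjusted p = 0.000585) and without *upf1Δ* replicate 1. Use of alternative 5′SS differed between strains in both introns, and this was not tested. Per 100 annotated reads, *RPS22B* intron 2 had 34.7 such reads in *prp18Δupf1Δ* and 3.51 in *upf1Δ*, and *RPS26A* had 0.285 in *prp18Δupf1Δ* and 6.20 in *upf1Δ*.

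**Figure D3:**
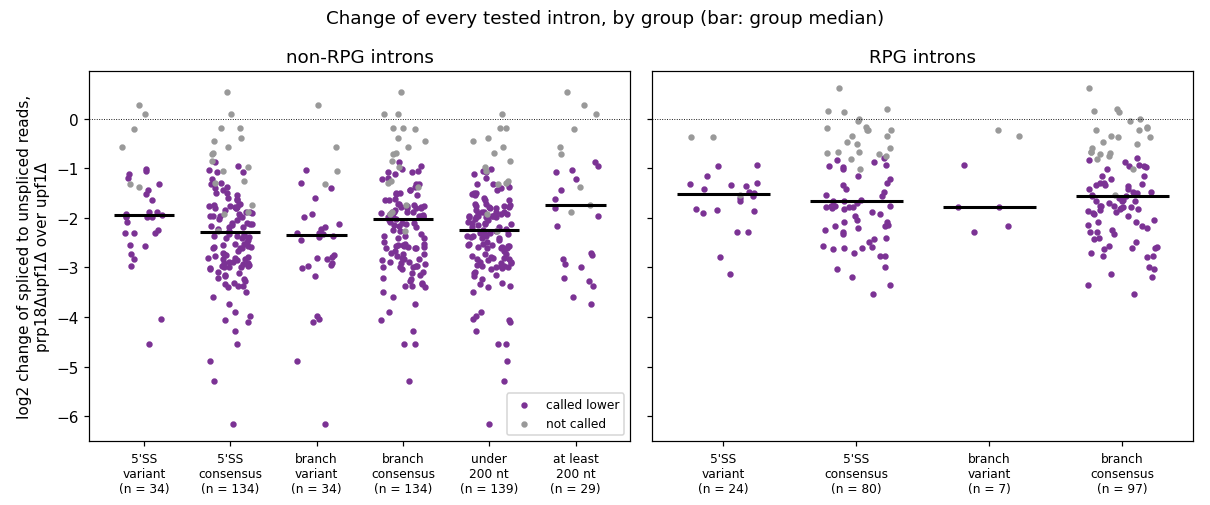
Log2 change of spliced over unspliced reads, *prp18Δupf1Δ* over *upf1Δ*, of each tested intron (points, spread sideways at random), with the group median as a bar, for non-RPG introns (left) and RPG introns (right). The group medians lie between −2.35 and −1.74 in non-RPG introns and between −1.78 and −1.52 in RPG introns, and the spread within each group is wider than any difference between medians.

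A property that was not used in the grouping, the distance between the assigned branch and the 3′SS, ran with the change in non-RPG introns. The median log2 change was −1.89 in introns with a distance under 20 nt (30 of 39 lower) and −1.96 from 20 nt to under 30 nt (36 of 45 lower). It was −2.59 from 30 nt to under 40 nt (43 of 45 lower) and −2.59 from 40 nt to under 60 nt (21 of 23 lower), and −2.31 at 60 nt or more (14 of 16 lower). Across the 168 introns, Spearman's rho between distance and log2 change was −0.27 and Pearson's r −0.13, and between length and log2 change rho was 0.02 and r 0.24, as a description of introns in the same libraries. The order of distance and length thus depended on the coefficient. In RPG introns rho was 0.01 for distance and 0.04 for length. The 5′SS and branch groups hardly differed in this distance, with medians of 28.5 nt in 5′SS variants and 30.0 nt in consensus introns, and 28.0 nt in branch variants and 30.0 nt in consensus introns.

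**Figure D4:**
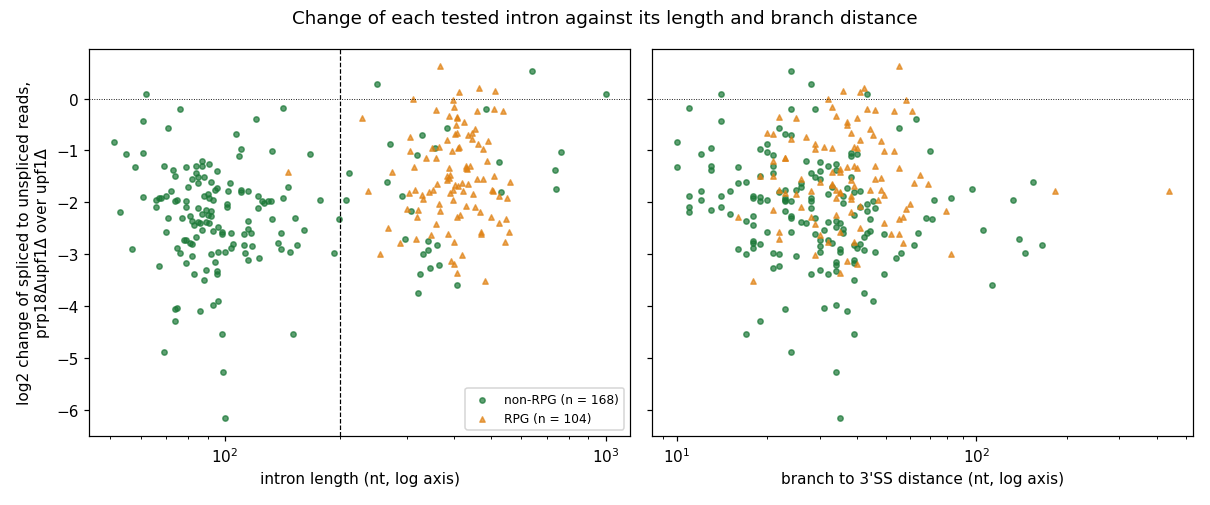
Log2 change of spliced over unspliced reads, *prp18Δupf1Δ* over *upf1Δ*, of each tested intron against intron length (left, dashed line at 200 nt) and against the distance between the assigned branch and the 3′SS (right), both on log axes, for non-RPG introns (circles) and RPG introns (triangles). Short non-RPG introns run down to −6.17 and long ones to −3.75, and the non-RPG introns with a distance under 20 nt lie higher, with a median of −1.89.

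Genes with 2 annotated introns allowed a comparison within one transcript, where expression is shared. There were 10 such genes, and in 4 of them the introns fell in different 5′SS or branch groups. In *SUS1*, which encodes a subunit of SAGA and of the mRNA export complex TREX-2, the first intron has a variant 5′SS and branch and had 56.8%, 29.6% and 29.9% in *prp18Δupf1Δ* and 83.1%, 60.7% and 66.0% in *upf1Δ* (log2 −1.99 ± 0.59, edgeR adjusted p = 0.0133). The second, consensus intron had 94.3%, 84.3% and 86.8% in *prp18Δupf1Δ* and 98.0%, 92.3% and 94.0% in *upf1Δ* (log2 −1.30 ± 0.61, adjusted p = 0.0768). The strains overlapped in the second intron and not in the first, and the second passed the threshold by DESeq2, with the replicate block, without *prp18Δupf1Δ* replicate 1 and without *upf1Δ* replicate 2. The second intron also passed with replicate 1 of both strains left out. Within a library, the log2 ratio of the first minus that of the second intron was −3.76 ± 0.16 in *prp18Δupf1Δ* and −3.09 ± 0.18 in *upf1Δ* (exact two-sided permutation p = 0.1, and 0.2 after adjustment over the 10 genes).

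The *RPL7* paralogues ran the other way. In *RPL7A* the first intron, with TACAAAC (T4A) as its assigned branch, was at 99.9%, 99.4% and 99.5% in *prp18Δupf1Δ* and 99.7% in each *upf1Δ* library (log2 −0.24 ± 0.51, edgeR adjusted p = 0.672), while the second, with TACTAAC, was at 97.8%, 96.3% and 96.2% in *prp18Δupf1Δ* and 99.3% in each *upf1Δ* library (log2 −2.20 ± 0.32, adjusted p = 0.000489). In *RPL7B* the first intron, with TGCTAAC, was at 87.1%, 76.7% and 75.6% in *prp18Δupf1Δ* and 88.1%, 81.0% and 82.0% in *upf1Δ* (log2 −0.36 ± 0.39, adjusted p = 0.413), and the second at 95.6%, 93.2% and 92.9% in *prp18Δupf1Δ* and 99.6%, 99.3% and 99.3% in *upf1Δ* (log2 −3.36 ± 0.35, adjusted p = 0.000176). The strains overlapped in both first introns and not in the second ones. Within a library, the log2 ratio of the first minus the second intron was 3.23 ± 0.66 in *prp18Δupf1Δ* and 1.20 ± 0.18 in *upf1Δ* for *RPL7A*, and −1.94 ± 0.23 in *prp18Δupf1Δ* and −4.95 ± 0.0032 in *upf1Δ* for *RPL7B* (exact two-sided permutation p = 0.1 each, 0.2 after adjustment). Both first introns passed the threshold as lower when *prp18Δupf1Δ* replicate 1 was left out, with log2 changes of −0.79 (adjusted p = 0.00797) and −0.71 (adjusted p = 0.0436). Both also passed as lower with replicate 1 of both strains left out.

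The stretch printed for the first intron of *RPL7A* also holds TGCTAAC, the heptamer assigned in *RPL7B*, as bases 423 to 429 of the intron, with its sixth base followed by 31 bases up to the end of the 3′SS. The heptamer occurs in 5 of the 281 introns (1.78%), searched on the strand that has the sequence of the RNA. It and the assigned TACAAAC each depart from TACTAAC at 1 base. The authors' methods settle such ties by the shorter distance to the 3′SS, yet the deposited tables assigned TACAAAC, the farther of these. In *EFM5*, the gene of an elongation factor methyltransferase, the first intron with GTAAGT was at 92.7%, 89.0% and 92.6% in *prp18Δupf1Δ* and 97.9%, 97.2% and 97.6% in *upf1Δ*, and the consensus second intron at 96.5%, 94.8% and 93.9% in *prp18Δupf1Δ* and 99.5%, 98.7% and 98.7% in *upf1Δ*. Both fell (log2 −1.89 ± 0.30 and −2.26 ± 0.43, edgeR adjusted p = 0.000764 and 0.0017), and the difference between them was −0.849 ± 0.47 in *prp18Δupf1Δ* and −1.33 ± 0.63 in *upf1Δ* on the log2 ratio (exact p = 0.5).

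Shifts as large as that of *SUS1* were not limited to genes whose introns differ in group. In the other 6 genes, the log2 ratio of the first minus the second intron differed between strains, *prp18Δupf1Δ* minus *upf1Δ*, by −1.37 to 0.95, beside −0.67 in *SUS1*. *HMRA1*, with consensus 5′SS and branch in both introns, had a difference of 0.889 ± 0.16 in *prp18Δupf1Δ* and 2.26 ± 0.40 in *upf1Δ*, and *TAD3*, a tRNA deaminase gene with AACTAAC in both, had 0.094 ± 0.25 in *prp18Δupf1Δ* and 0.862 ± 0.30 in *upf1Δ* (exact two-sided permutation p = 0.1 each, 0.2 after adjustment). The introns of *HMRA1* also stand in *MATa1* at the mating-type locus of *MATa* cells, and how reads of these copies were counted was not tested. In *RPS22B*, with consensus long introns, the difference was −1.55 ± 0.68 in *prp18Δupf1Δ* and −2.50 ± 0.67 in *upf1Δ* (exact p = 0.3).

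**Figure D5:**
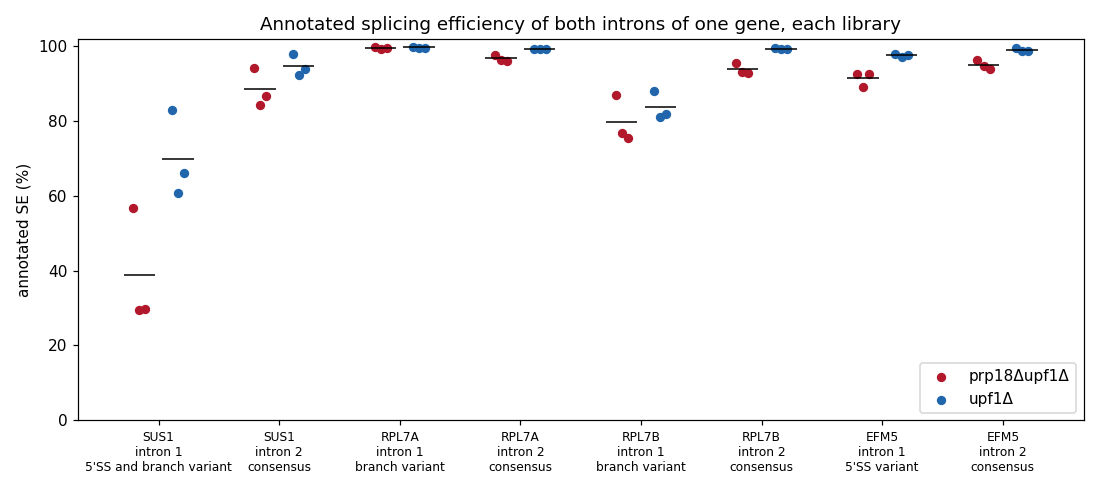
Annotated SE (%) of both introns of the 4 genes whose introns fall in different groups, 1 point per library with the mean as a bar, *prp18Δupf1Δ* left of *upf1Δ*. The first introns of *RPL7A* and *RPL7B*, with a variant branch, overlap between strains, and the consensus second introns do not.

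Of the 2 non-RPG and the 2 RPG introns with the highest SE in *upf1Δ*, 3 were lower in *prp18Δupf1Δ*, and the first intron of *RPL7A*, described above, did not pass the threshold. *RIM1*, the consensus intron printed above, in a gene of mitochondrial DNA maintenance, was at 97.7%, 95.9% and 95.6% in *prp18Δupf1Δ* and 99.6%, 99.4% and 99.6% in *upf1Δ* (log2 −3.04 ± 0.36, edgeR adjusted p = 0.000244). *YPR170W-B* averaged 97.0 ± 1.48% in *prp18Δupf1Δ* and 99.5 ± 0.224% in *upf1Δ* (log2 −2.61 ± 0.56, adjusted p = 0.00299), and *RPL31A*, a large-subunit RPG, averaged 98.0 ± 0.967% in *prp18Δupf1Δ* and 99.8 ± 0.094% in *upf1Δ* (log2 −3.03 ± 0.55, adjusted p = 0.00141). Among RPG introns, SE in *upf1Δ* and log2 change had a Spearman's rho of −0.54 over 104 introns, and among non-RPG introns −0.24 over 168, again as a description, since both values contain the *upf1Δ* reads.

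Alternative 3′SS were counted beside the annotated junctions as reads per 100 annotated reads, summed over the 3 libraries of a strain, without a test. More than 10 such reads per 100 were seen for 10 of 34 non-RPG introns with a variant branch in *prp18Δupf1Δ* and 5 of 34 in *upf1Δ*, and for 28 of 134 with TACTAAC in *prp18Δupf1Δ* and 15 of 134 in *upf1Δ*. For the 5′SS the counts were 9 of 34 variant introns in *prp18Δupf1Δ* and 5 of 34 in *upf1Δ*, and 29 of 134 consensus introns in *prp18Δupf1Δ* and 15 of 134 in *upf1Δ*. By length they were 35 of 139 short introns in *prp18Δupf1Δ* and 19 of 139 in *upf1Δ*, and 3 of 29 long introns in *prp18Δupf1Δ* and 1 of 29 in *upf1Δ*. In RPG introns 2 of 104 in *prp18Δupf1Δ* and 1 of 104 in *upf1Δ* passed this level. The highest values stood in introns with little annotated splicing, such as *MTR2* (785 in *prp18Δupf1Δ* and 467 in *upf1Δ*) and *YCL002C* (400.0 in *prp18Δupf1Δ* and 22.0 in *upf1Δ*). *SRB2* had no read of an alternative 3′SS that passed the filters in either strain.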

How the data were processed

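RNA of 3 *prp18Δupf1Δ* and 3 *upf1Δ* libraries was sequenced as stranded mRNA. The authors trimmed reads with cutadapt 1.18, aligned them to R64 with BBMap and STAR 2.7.0d, and retained whichever alignment of a read pair scored better. The deposited junction reads are raw counts. For unspliced RNA the authors gave 1 estimated count per intron, with the reads over the intact 5′SS and over the intact 3′SS added and divided by 2. The deposited annotated SE is a fraction, made by the authors from these counts. It followed from them in every annotated entry of all 6 tables, and the 5′SS, 3′SS and branch sequences of all 281 introns matched R64. The tables give the unspliced reads of both sites combined, so the planned comparison of the 5′SS with the 3′SS was not made.

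The R packages edgeR 4.0.16, limma 3.58.1 and DESeq2 1.42.0 ran in R 4.3.3. Other steps used pandas 2.3.3, numpy 2.4.6, scipy 1.17.1 and matplotlib 3.10.9 in python 3.11.15. An intron was tested if each library listed a junction of it and held at least 1 read of it, spliced or unspliced, and the 6 libraries at least 10. Where a library listed no junction of an intron, its unspliced reads were not given. It was called well covered if each library held at least 20. The edgeR test took 2 counts per library (annotated junction reads, and the estimated count multiplied by 2 and so whole), with a term for each library, over all introns tested. The log2 ratio of a single library, used for gaps, had 0.5 added to both counts. Group medians were compared between strains over all 20 assignments of 3 libraries against 3 (smallest two-sided p 0.1). No test was run across introns. On simulated counts for 272 introns with this comparison's depth, edgeR found 45% of 2-fold and 92% of 4-fold falls, and called 1 of 72 unchanged introns. The simulated introns varied independently, without a shift shared by a library such as that of replicate 1, so these rates need not hold for the real counts. Alternative junctions needed 6 gapped reads or more over the libraries, overhangs without mismatch of 10 bp upstream and 40 bp downstream, and 50% or more of their reads free of mismatches near the junction.

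The members and lists were chosen with earlier results of these data known. Named introns are the lowest and highest log2 change of each group among well covered introns, the intron with most reads for each variant sequence shared by at least 3 introns, introns with both elements variant, genes whose introns fall in different groups, *HAC1*, and the highest and lowest SE in *upf1Δ*. *BET4*, *SCS22*, *HMRA1*, *TAD3*, *RPL19A*, *RPS25B* and *DBP2* are named beside them. The replicate numbers of the labels were checked as pairs: deviations from the strain means correlated at 0.58, 0.30 and 0.38 for the same numbers, all above 0.1, while replicates 2 and 3 correlated across numbers at 0.34 and 0.37. The labels state no shared culture or day, and the fit with the number as a block was an alternative, as were DESeq2, limma, other read minimums, means, length limits of 150 nt and 300 nt, looser consensus groups and leaving out libraries.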

Additional observations from a re-analysis of the deposited data

How the results depend on the processing

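There were 16 summary values and 185 alternatives. Of those that left out a single library, 64 were rated unchanged, 1 moved and 1 reversed, and of the others 97 were unchanged, 15 moved and 7 reversed. A gap was rated unchanged if it kept its sign and lay within the SD between libraries of the main value. Changes in points of SE were rated by sign only, and counts of calls by similar size. For the non-RPG 5′SS gap in SE, the value was −17.3 points in *prp18Δupf1Δ* without *HAC1*. With GTATG alone as the consensus it was −3.63 in *prp18Δupf1Δ* and −3.68 in *upf1Δ*, with a consensus branch and under 200 nt −10.1 in *prp18Δupf1Δ* and −5.13 in *upf1Δ*, and for means −13.4 in *prp18Δupf1Δ* and −15.3 in *upf1Δ*. For the non-RPG branch gap, the consensus by the last 6 bases gave −51.7 in *prp18Δupf1Δ* and −22.1 in *upf1Δ*, the same restriction to other consensus features −22.8 in *prp18Δupf1Δ* and −9.21 in *upf1Δ*, no filter on reads −17.6 in *upf1Δ* and means −17.9 in *upf1Δ*. The length gap for means was −2.55 in *prp18Δupf1Δ* and 4.27, of the opposite sign, in *upf1Δ*, where it was also 0.136 without replicate 2. The RPG 5′SS gap in *upf1Δ* was −3.44 for means. These regroupings move introns between groups by construction, and for the others the cause was not tested.

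Gaps in change were small, and several changed sign. The non-RPG 5′SS gap of 0.36 in log2 was −1.88 in points of SE. The RPG 5′SS gap of 0.13 was −0.97 in points and −0.078 for means. The RPG branch gap of −0.21 was 0.52 with the last 6 bases and 0.16 for means. It was 0.029 when each intron's change was its median difference between same-numbered libraries. The edgeR fit with the replicate block kept the sign, with medians of −1.77 for variants and −1.58 for consensus introns. The block gave 247 introns lower and 1 higher (*RPS26A*), and beyond the results named with it changed no other call of a named intron. With both replicates numbered 1 left out, 256 introns were lower, and *RPL42A* and *RPS26A* were higher.

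Leaving out single libraries gave 189 to 252 introns lower. SE gaps in points then lay between −19.9 and −18.8 in *prp18Δupf1Δ* and −11.9 and −8.97 in *upf1Δ* for the non-RPG 5′SS, −35.8 and −29.8 in *prp18Δupf1Δ* and −14.1 and −11.5 in *upf1Δ* for the non-RPG branch, and −5.47 and −3.61 in *prp18Δupf1Δ* and −1.18 and 0.136 in *upf1Δ* for length. In RPG introns they lay between −5.31 and −3.52 in *prp18Δupf1Δ* and −2.35 and −1.52 in *upf1Δ* for the 5′SS, and −15.4 and −11.5 in *prp18Δupf1Δ* and −6.21 and −4.50 in *upf1Δ* for the branch. Gaps in log2 change lay between 0.35 and 0.46, −0.41 and −0.24, and −0.90 and −0.31 (the −0.90 without *prp18Δupf1Δ* replicate 1) for the non-RPG 5′SS, branch and length, and between 0.04 and 0.19 and −0.21 and −0.06 for the RPG 5′SS and branch. Alternatives that use unspliced reads of 1 splice site could not be run, since the tables combine both sites. With 3 libraries a strain, an exact p under 0.1 cannot be reached, and p values cover only the spread between these libraries.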
